A study of Mus musculus with 4 samples.

Results

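Immediate-early and NF-kB feedback genes are genes that a lymphocyte switches on soon after its receptors are engaged. The list held 36 of them, chosen by name. It held AP-1 subunits, EGR and NR4A factors, phosphatases of MAP kinases, IER proteins, and subunits and feedback regulators of NF-kB. Proteins that control RNA decay and proliferation and 4 further activation genes completed it. Each gene was read from the array probe set that the annotation pairs with that symbol alone and that had the highest mean over the 4 arrays. This gave values for 35 of the 36 genes, among 19938 genes measured, and each of the 35 had a single such probe set. Nfkb1 was not analysed here.

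The study measured RNA of naive CD8 T cells sorted by flow cytometry from spleens of Klf13 knockout mice (KO, 2 arrays) and of wild-type mice (WT, 2 arrays), all of the BALB/c strain. Klf13 encodes a DNA-binding regulator with zinc fingers, related to SP and KLF proteins, and the series concerns its bearing on memory-like CD8 T cells. The sources used here give neither the deleted part of Klf13 nor the age of the mice, and do not say whether both samples of a genotype came from separate animals, so the spread behind every p-value may be technical rather than one between animals. All groups were of naive cells with no stated stimulation.

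In resting T cells, engagement of the antigen receptor activates MAP kinases, calcium signalling and the IKK kinases. MAP kinases act on serum response and CRE elements of genes such as Fos and Egr1, calcium signalling on genes such as Egr2, Egr3 and Nr4a1, and IKK releases NF-kB from its inhibitor. Many of the induced products then damp the signal that induced them: DUSP proteins dephosphorylate MAP kinases, Nfkbia and Tnfaip3 restrain NF-kB, and Zfp36 proteins destroy short-lived transcripts.

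Promoter windows in the RefSeq table for GRCm38.p6, from 250 bases before to 50 after a gene's start, were found for 27 of the 36 genes, as 36 windows. Shown are the 250 bases before the start, 5′ to 3′ on the gene's strand, of Dusp6, which fell in KO cells, of Nr4a1 and Nr4a2, paralogs whose differences had opposite signs, and of Nfkbia, the inhibitor of NF-kB that is its best-known target. Capitals mark matches on either strand to any of the motifs searched, which may overlap.
Dusp6, chr10:99262981-99263230, plus strand: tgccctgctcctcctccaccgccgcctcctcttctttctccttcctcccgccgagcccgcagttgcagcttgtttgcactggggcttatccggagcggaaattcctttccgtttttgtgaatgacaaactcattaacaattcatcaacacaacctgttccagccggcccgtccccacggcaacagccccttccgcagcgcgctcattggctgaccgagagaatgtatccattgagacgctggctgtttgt
Nr4a1, chr15:101266596-101266845, plus strand: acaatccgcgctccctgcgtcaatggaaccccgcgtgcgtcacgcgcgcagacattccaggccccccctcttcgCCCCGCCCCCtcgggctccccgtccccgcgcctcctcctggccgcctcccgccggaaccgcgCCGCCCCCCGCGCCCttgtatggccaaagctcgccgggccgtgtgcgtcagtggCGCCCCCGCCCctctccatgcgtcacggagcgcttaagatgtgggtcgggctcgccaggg
Nr4a2, chr2:57124004-57124253, minus strand: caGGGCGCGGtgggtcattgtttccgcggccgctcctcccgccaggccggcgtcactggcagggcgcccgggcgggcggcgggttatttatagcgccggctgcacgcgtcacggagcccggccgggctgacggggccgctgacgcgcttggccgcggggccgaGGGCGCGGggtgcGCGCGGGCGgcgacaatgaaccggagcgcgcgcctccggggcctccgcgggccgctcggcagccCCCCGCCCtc
Nfkbia, chr12:55492648-55492897, minus strand: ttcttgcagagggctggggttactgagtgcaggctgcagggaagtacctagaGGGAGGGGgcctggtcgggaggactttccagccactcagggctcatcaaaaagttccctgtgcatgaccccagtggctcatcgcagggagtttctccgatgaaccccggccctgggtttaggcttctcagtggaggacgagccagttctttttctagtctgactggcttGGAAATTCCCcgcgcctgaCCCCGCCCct

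The kappaB motif of NF-kB was found in 3 of the 36 windows, against 0.411% of 32851 windows of all genes; these belonged to Nfkbia and, in overlapping windows, to Nfkb2. In Nfkbia it is the middle run of capitals, read on the opposite strand. The CArG box bound by serum response factor lay in 6 windows, against 1.63% of all windows, and these belonged to Egr2, several of whose windows overlap, to Dusp5 and to Zfp36. The EGR motif GCGNGGGCG was in 8 windows, against 5.55% of all, Nr4a1 and Nr4a2 among them. TGACGTCA, the CRE, was in 3 windows (Btg2, Dusp1 and Nfkbid) against 1.79% of all, and TGANTCA of AP-1 in 3 against 7.81%. The short motif CCNCNCCC of SP and KLF factors was in 31 windows, against 49.5% of all. The Dusp6 window held none of these letters. A match describes these letters and shows no binding.

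On the arrays, 2 of the 35 genes changed, and both fell in KO cells: Cd69, a surface protein that appears early on activated lymphocytes and holds them in tissue, and Dusp6, the cytoplasmic phosphatase of the kinase ERK. The test was limma with Benjamini-Hochberg adjustment over all 19938 genes and a threshold of 0.05. By that rule 1.05% of all genes were called lower in KO, 1.19% higher and 2.25% in either direction. Within the 9969 genes of higher mean level, to which all 35 belong, 1.87% were lower and 1.78% higher; fitted on that set alone, the share called was 6.08%, and the same 2 of the 35 passed. At an unadjusted p under 0.05, 8 of the 35 genes passed (2 higher, 6 lower in KO), where 16.6% of all genes did (7.85% higher, 8.75% lower). Values below are log2 probe-set values, and differences are KO minus WT. Levels of different genes are not compared, since probe sets bind with different strength.

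Cd69 had 8.80 and 8.93 on the KO arrays and 9.42 and 9.35 on the WT arrays. Both KO values lay below both WT values, and the gap was wider than either pair's own spread. The difference was -0.53 (95% interval -0.74 to -0.31, limma adjusted p = 0.0219), a 1.44-fold lower value in KO. Dusp6 had 7.19 and 7.52 on the KO arrays and 7.93 and 7.93 on the WT arrays. The KO arrays were again the lower, but stood farther apart than the WT arrays did. The difference was -0.57 (95% interval -0.83 to -0.31, limma adjusted p = 0.0359), or 1.48-fold. Both calls were lost without KO replicate 1 (Cd69 adjusted p = 0.0759, Dusp6 0.0942) and when all 35556 probe sets were tested singly (0.160 and 0.234). That of Cd69 was also lost without WT replicate 1 (0.144), and that of Dusp6 after a further quantile normalization (0.0547).

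**Figure D1:**
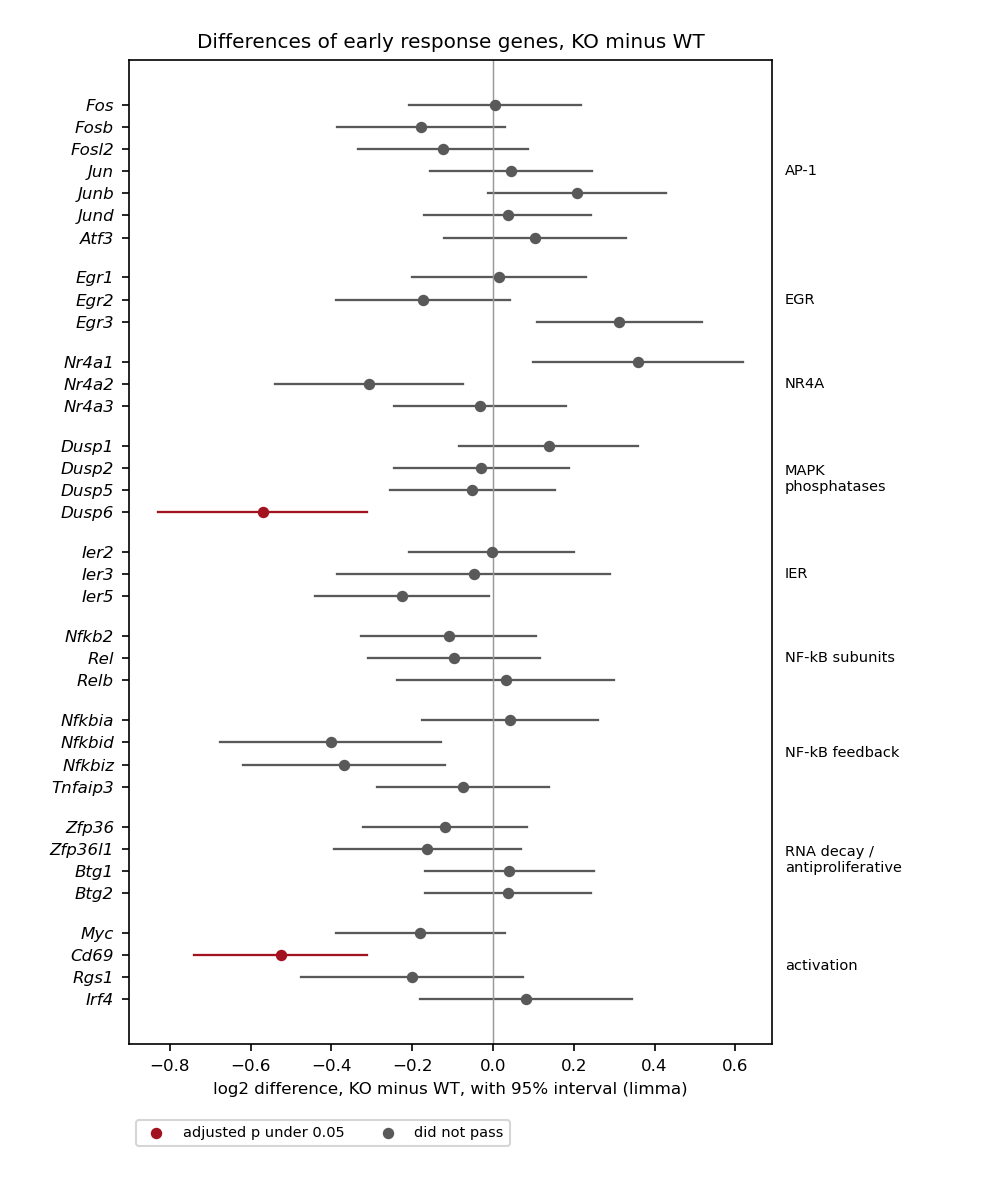
Difference of group means of log2 values, KO minus WT, of each gene (point) with its 95% limma interval (line), by family from top to bottom. The intervals of Cd69 and Dusp6, the genes that passed the adjusted test, end at -0.31.

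AP-1 is a dimer of FOS, JUN and ATF proteins. Of its 7 genes 0 passed, 5 differences were positive and 2 negative, and the median difference was 0.04, which turned negative when arrays were centred on their medians (-0.050) and without KO replicate 2 (-0.012). At an unadjusted p under 0.05, 0 of the 7 passed as well. Fos had 9.79 and 9.93 on the KO arrays and 9.85 and 9.86 on the WT arrays, so the WT values lay between the KO values. Jun, its main partner, had 9.81 and 9.82 in KO cells and 9.77 and 9.77 in WT cells. The Jun arrays did not overlap by genotype, yet the difference was 0.05, with a 95% interval of -0.16 to 0.25.

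Junb, a JUN protein that often acts against Jun, had the highest AP-1 difference: 7.29 and 7.44 on the KO arrays against 7.10 and 7.21 on the WT arrays (0.21, limma adjusted p = 0.333). Fosb was on the other side, with 9.17 and 9.27 in KO cells against 9.40 and 9.40 in WT cells (-0.18, limma adjusted p = 0.382). Fosl2, a FOS protein without a strong activation domain, lay likewise lower on both KO arrays (-0.12). Jund, the JUN protein of resting cells, and Atf3, a stress-induced partner of JUN, overlapped between genotypes and differed by 0.04 and 0.10.

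EGR factors are zinc-finger proteins; Egr2 and Egr3 restrain T cell activation. Egr1 overlapped, with 6.14 and 6.29 on the KO arrays and 6.17 and 6.22 on the WT arrays. Egr2 lay lower in KO cells, at 5.44 and 5.59 against 5.69 and 5.69 (-0.17, limma adjusted p = 0.415). Egr3 lay higher in KO cells, at 5.93 and 5.94 against 5.59 and 5.66. Its difference of 0.31 had a 95% interval of 0.11 to 0.52 and did not pass over all genes (limma adjusted p = 0.127). The family's median of 0.02 turned negative after centring (-0.071), without KO replicate 2 (-0.060) and without WT replicate 1 (-0.0075).

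NR4A genes encode orphan nuclear receptors, and Nr4a1 (Nur77) tracks the strength of antigen receptor signalling. Nr4a1 had 7.99 and 8.23 on the KO arrays and 7.64 and 7.86 on the WT arrays, so the KO arrays were the higher ones although the arrays of each pair were apart as well. Its difference was 0.36 (95% interval 0.10 to 0.62, limma adjusted p = 0.164). It passed with a variance trend and robust moderation (limma adjusted p = 0.0437) and with the replicate number as a block (0.0352). The block fit in effect gave all genes the same spread, so that call does not rest on the spread of Nr4a1 itself. Nr4a2 (Nurr1) had 5.87 and 6.10 on the KO arrays and 6.27 and 6.32 on the WT arrays. Its difference was -0.31 (95% interval -0.54 to -0.07, limma adjusted p = 0.183), and it passed without KO replicate 2 (0.0431). Nr4a3 (Nor1) overlapped and differed by -0.03. The paralogs thus gave differences of either sign, while 0 of 3 passed.

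Among the MAP kinase phosphatases, Dusp6 fell and the other 3 did not pass. Dusp1, a nuclear phosphatase of p38 and JNK, had 10.49 and 10.68 on the KO arrays and 10.44 and 10.45 on the WT arrays, a difference of 0.14 (95% interval -0.08 to 0.36). The nuclear ERK phosphatases Dusp2 and Dusp5 overlapped between genotypes, with differences of -0.03 and -0.05. For these the intervals of -0.25 to 0.19 and -0.26 to 0.15 leave no room for a fall of the size measured for Dusp6. The difference between Dusp6 and its paralogs was not tested.

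The IER genes encode small proteins; Ier3 bears on survival and ERK signalling, and Ier5 on the heat shock response. Ier2 overlapped and differed by less than 0.01. Ier3 was the most variable gene, at 4.71 and 5.20 on the KO arrays and 4.88 and 5.12 on the WT arrays, with the KO pair enclosing the WT pair. Ier5 had 7.18 and 7.31 in KO cells and 7.43 and 7.51 in WT cells (-0.22, limma adjusted p = 0.280).

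**Figure D2:**
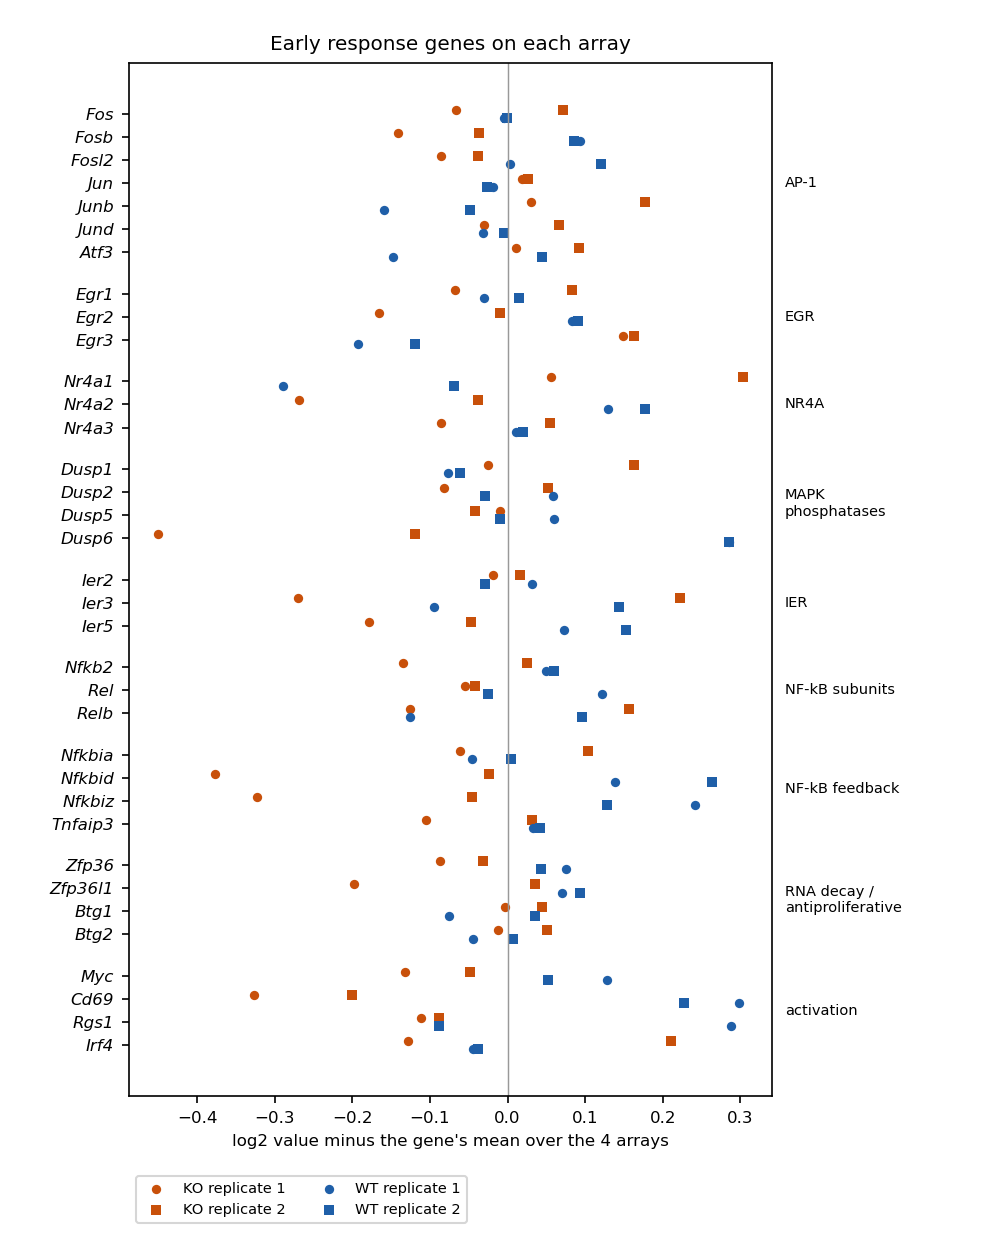
Log2 value on each array minus the gene's own mean over the 4 arrays, by family from top to bottom, KO in orange and WT in blue. Cd69, Dusp6, Nfkbid and Nfkbiz are among the 16 genes with both KO points left of both WT points. Egr3 and Nr4a1 are among the 5 with both to the right. KO replicate 1 lies left of KO replicate 2 for 34 of the 35 genes.

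NF-kB subunits bind DNA as dimers, with Rel (c-Rel) the activation-linked one of T cells and Nfkb2 and Relb those of the non-canonical route. Of the 3 measured, 0 passed. Rel had 7.35 and 7.36 on the KO arrays and 7.52 and 7.38 on the WT arrays (-0.10), Nfkb2 7.01 and 7.17 against 7.19 and 7.20 (-0.11), and Relb 5.81 and 6.09 against 5.81 and 6.03 (0.03). The gap between genotypes was within the spread of one or both pairs for each of them.

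The 4 genes of the NF-kB feedback family split. Nfkbia, the inhibitor IkB-alpha, overlapped, with 8.87 and 9.03 on the KO arrays and 8.88 and 8.93 on the WT arrays, a difference of 0.04. Tnfaip3 (A20), which edits ubiquitin on signalling proteins, had 9.30 and 9.44 in KO cells and 9.44 and 9.45 in WT cells, a difference of -0.07. The nuclear IkB proteins gave the widest gaps. Nfkbid (IkB-NS), needed for induction of some NF-kB target genes, had 6.38 and 6.74 on the KO arrays and 6.90 and 7.02 on the WT arrays (-0.40, 95% interval -0.67 to -0.13, limma adjusted p = 0.141). Nfkbiz (IkB-zeta), another nuclear co-regulator, had 6.61 and 6.88 in KO cells and 7.17 and 7.06 in WT cells (-0.37, 95% interval -0.62 to -0.12, limma adjusted p = 0.139). Both KO values lay below both WT values for each, and neither gene passed. Each passed after median centring (Nfkbid limma adjusted p = 0.0266, Nfkbiz 0.0303) and with the replicate block (0.0130 and 0.0273). The block fit in effect gave all genes the same spread, so these calls do not rest on the spread of either gene. Without KO replicate 2 the differences were -0.58 for Nfkbid and -0.51 for Nfkbiz. The family's median of -0.22 was the lowest of the 9 families, except that the activation genes lay lower without KO replicate 1 (-0.16 against -0.12) and without WT replicate 2 (-0.30 against -0.20). Its sign stayed negative in the alternatives that could change it: a further quantile normalization, centring and leaving out each array. The other alternatives leave the differences of these genes as they were.

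Of the genes of RNA decay and proliferation control 0 of 4 passed. Zfp36 (tristetraprolin), which binds AU-rich transcripts and removes them, had 9.29 and 9.34 on the KO arrays against 9.45 and 9.42 on the WT arrays (-0.12). Its paralog Zfp36l1 had 8.03 and 8.26 against 8.30 and 8.32 (-0.16). Both lay lower on the KO arrays without overlap, and neither passed. The antiproliferative genes Btg1 and Btg2, which hold T cells quiescent, overlapped and differed by 0.04 each, and both turned negative after centring (-0.045 and -0.049).

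Of the last 4 genes, Cd69 fell and 3 did not pass. Myc, the growth regulator, had 9.71 and 9.79 in KO cells against 9.97 and 9.89 in WT cells (-0.18, limma adjusted p = 0.382). Rgs1, which shortens chemokine receptor signalling, rested on 1 array: the KO arrays had 5.91 and 5.94 and the WT arrays 6.31 and 5.94. Irf4, whose level follows receptor signal strength, had 5.20 and 5.54 in KO cells and 5.28 and 5.29 in WT cells, with the KO pair again enclosing the WT pair.

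Over the 35 genes the median difference was -0.05, against 0.02 over all genes, and 14 differences were positive and 21 negative. For 16 genes both KO arrays lay below both WT arrays, where 23.2% of all genes did so, and for 5 both lay above, where 24.4% did. Within the 9969 genes of higher mean level the median difference was -0.06, 64.8% of differences were negative, 38.8% of genes had both KO arrays below, and 17.0% had both above. For the 35 genes these shares were 60.0%, 45.7% and 14.3%, and the medians of the list and of its set differed by about 0.01. The list as a whole thus lay near that set, which was not matched to the 35 genes in level. Centring the arrays on their medians shifts every difference by -0.086, which by itself leaves 5 positive differences in place of 14; the median of the 35 genes was then -0.13, that of the 9969 genes -0.15 and that of all genes -0.07.

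The KO arrays differed from each other in one direction. Over all 19938 genes, KO replicate 1 had a narrower spread of values than the other arrays: its upper quartile was 6.76, against 6.91 on KO replicate 2 and 6.92 on both WT arrays, and its lower quartile 3.38, against 3.27 on KO replicate 2 and 3.25 on both WT arrays. Its part in the results was not tested beyond leaving that array out and normalizing again. KO replicate 1 lay below KO replicate 2 for 34 of the 35 genes, Dusp5 being the exception, where 79.9% of the 9969 genes with the higher levels did so. WT replicate 1 lay below WT replicate 2 for 24 of the 35, where 48.7% of the 9969 genes did. The median distance between the arrays of a pair was 0.14 for KO and 0.06 for WT, close to the 0.14 and 0.07 of the 9969 genes. Against the WT mean, the median of the 35 genes was -0.10 on KO replicate 1 and 0.01 on KO replicate 2. Without KO replicate 1, 0 genes passed and 18 of 35 differences were positive, and without KO replicate 2, 5 passed, all lower in KO (Cd69, Dusp6, Nfkbid, Nfkbiz and Nr4a2), and 8 were positive.

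**Figure D3:**
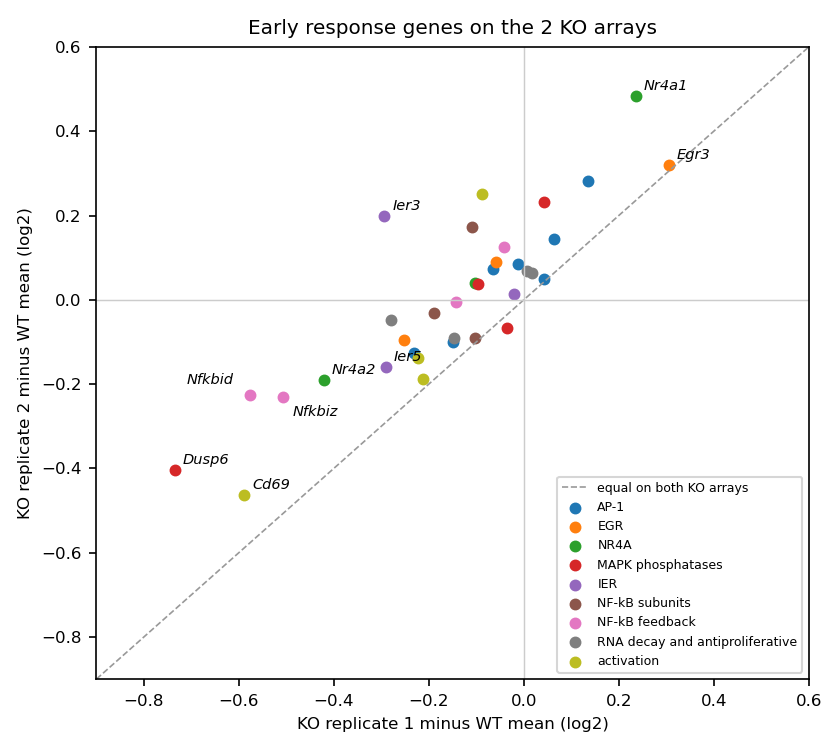
Each early response gene on KO replicate 1 (horizontal) and KO replicate 2 (vertical), both as log2 value minus the WT mean, coloured by family. All points but that of Dusp5 lie above the dashed line of equal values; Cd69 and Dusp6 are low and Egr3 and Nr4a1 high on both arrays.

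The wider pathway was read from 81 related genes, of which 76 were measured and the other 5 were not analysed here. Of the 76, 4 fell, 2 rose and 70 did not pass, where 1.05% of all genes were called lower and 1.19% higher. Of the 9969 genes with the higher levels, which held 69 of the 76, 1.87% were lower and 1.78% higher. At an unadjusted limma p under 0.05, 27 of the 76 passed (7 higher, 20 lower in KO). Among all genes 16.6% did (7.85% higher, 8.75% lower), and that share was not taken within the 9969 genes. In the IKK and NF-kB core, 1 of 16 genes fell and 0 rose. Traf1, an adaptor of TNF receptors and itself an NF-kB target, had 7.18 and 7.18 on the KO arrays and 8.04 and 8.03 on the WT arrays. The pairs were tight and far apart, and the difference of -0.85 (95% interval -1.05 to -0.65, limma adjusted p = 0.00107) was larger than that of any of the 35 early response genes. The deubiquitinase gene Otulin (-0.40), the A20-binding Tnip1 (-0.37) and Nfkbib (-0.28), which encodes IkB-beta, had the next smallest p and did not pass (limma adjusted p = 0.103, 0.141 and 0.174). At an unadjusted limma p under 0.05, 7 of the 16 genes passed, 1 higher and 6 lower in KO. For 11 of the 16 genes both KO arrays lay below both WT arrays. This held for 23.2% of all genes and 38.8% of the 9969 genes with the higher levels. The median difference was -0.16 and all 16 were among the 9969 genes with the higher levels, whose median was -0.06.

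Of 17 genes of MAP kinase, calcium and serum response input, 0 passed the adjusted test and 2 had an unadjusted p under 0.05, where 16.6% of all genes did. Their median was -0.01. The cAMP-responsive repressor gene Crem (-0.35) and the p38 substrate kinase gene Mapkapk2 (0.31) had the smallest p (limma adjusted p = 0.141 and 0.167), followed by Creb3l2 (0.19) and the calcium-regulated factor gene Nfatc3 (0.18).

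Of 43 other early response genes, 3 fell and 2 rose. At an unadjusted limma p under 0.05, 18 of the 43 passed (5 higher, 13 lower in KO), where 16.6% of all genes did. Sgk1, a kinase induced by serum and glucocorticoids, had 7.27 and 7.24 on the KO arrays against 7.82 and 7.79 on the WT arrays (-0.55, limma adjusted p = 0.0135). The stress-responsive kinase gene Plk3 had 5.95 and 6.01 against 6.45 and 6.37 (-0.43, adjusted p = 0.0451), and the homeobox repressor gene Tgif1 6.33 and 6.61 against 6.93 and 7.02 (-0.51, adjusted p = 0.0493). These were lower on both KO arrays. Nab2, which encodes a corepressor of EGR factors, rose, with 7.13 and 7.32 in KO cells against 6.77 and 6.67 in WT cells (0.51, limma adjusted p = 0.0334). Bhlhe40, a basic helix-loop-helix repressor induced by receptor signals, rose too, with 5.39 and 5.73 against 4.83 and 5.03 (0.63, limma adjusted p = 0.0331). Of the 6 called related genes, Bhlhe40, Nab2, Sgk1 and Traf1 passed without KO replicate 1, and Traf1 alone passed without WT replicate 1. Only Nab2 and Traf1 passed after a further quantile normalization, and 0 passed with all probe sets tested singly.

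**Figure D4:**
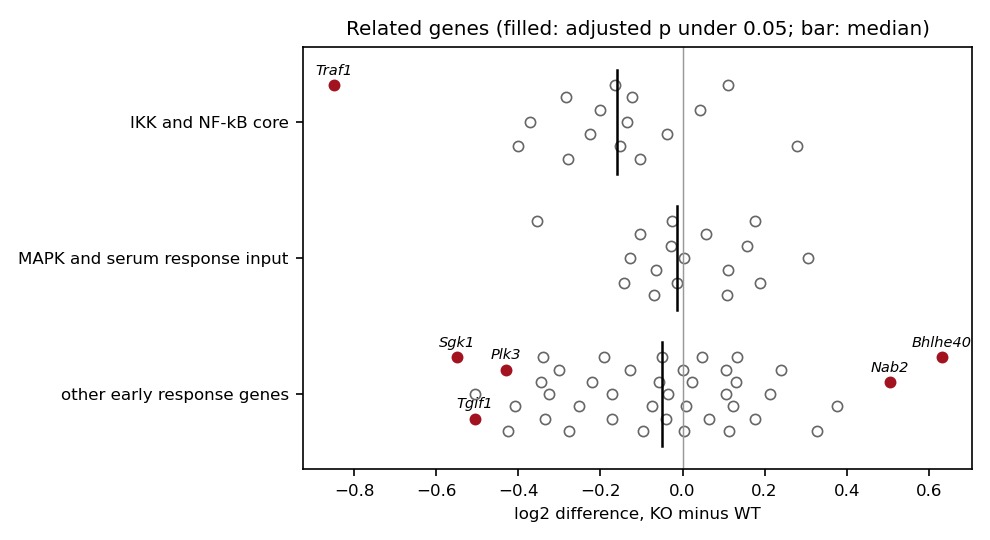
Log2 difference, KO minus WT, of 76 related genes in 3 groups; each point is a gene, filled points passed the adjusted limma test and the bar is the group's median. The medians are -0.16, -0.01 and -0.05 from top to bottom, and Traf1 is the lowest point at -0.85.

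Klf13 itself was 3.10-fold lower in KO cells, with 5.46 and 5.43 on the KO arrays and 7.01 and 7.15 on the WT arrays. Whether its probe set lies in the deleted part is not known here. The Klf13 gene lies on chromosome 7, as do Fosb, Relb, Nfkbid and Zfp36. Of 8 measured CD8 T cell identity genes 0 passed, and their values summed on the linear scale to 10068 and 10296 on the KO arrays and to 10533 and 10515 on the WT arrays. Of 3 measured naive T cell markers 0 passed, with a median difference of -0.27 and sums of 3139 and 3249 on the KO arrays against 3604 and 3569 on the WT arrays; 2 of the 3 had an unadjusted p under 0.05, both lower in KO. Markers of other cells moved beside the falls of Cd69 and Dusp6. Of 10 neutrophil markers, 3 rose (Mpo, Elane and Prtn3), with linear sums of 780 and 844 on the KO arrays against 253 and 287 on the WT arrays. The 3 called genes made up most of each sum. The other 7 did not pass and lay outside the 9969 genes of higher mean level, and 3 of the 10 overlapped between genotypes. Of 10 myeloid and dendritic markers, 4 rose (Lyz2, Csf1r, Tyrobp and Mpeg1), with sums of 1472 and 1556 against 1118 and 1139. Most of these sums came from Cst3, named after its values were seen, which did not pass; the other 9 summed to 220.0 and 252 on the KO arrays against 157 and 149.8 on the WT arrays. Of 5 markers of CD4 and regulatory T cells, 2 rose (Ikzf2 and Gpr83) and the other 3 did not pass. Of these 3, Cd4 (-0.07) and Foxp3 (0.18) overlapped between genotypes, while Zbtb7b (0.39) lay higher on both KO arrays. Of 4 platelet markers 2 rose (Pf4 and Itga2b). Of 9 B cell markers 0 passed, with sums of 275 and 314 against 229 and 249. Of 6 genes listed as NK cell markers, Eomes fell and the other 5 did not pass. Eomes had 6.66 and 6.67 on the KO arrays against 8.12 and 8.11 on the WT arrays. Which of the cells its RNA came from was not tested, so its fall is not read here as one of NK cells. Among the 6, 3 differences were positive and 3 negative. Both KO arrays lay above both WT arrays for 2 of them and below for 1, Eomes. The part of all these cell markers in the differences of the early response genes was not tested. In bulk RNA, fewer cells of a type and less RNA per cell cannot be told apart.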

How the data were processed

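RNA of sorted naive splenic CD8 T cells (2 KO, 2 WT samples) was hybridised to 1-colour Affymetrix arrays after random-primed whole-transcript amplification of 200 ng, per the labels' protocols. The authors deposited log2 probe-set values; the submitters' processing notes name RMA and Partek without versions, and no genome build is given in the sources used here. RMA is built to make the arrays' probe distributions alike and compresses folds of dim genes; the deposited columns still differed in spread, as the report gives.

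Of 35556 probe sets, 21789 carried 1 gene symbol, 1621 several and 12146 none in GEO's platform annotation; symbols were updated by gene identifier to RefSeq GRCm38.p6 (21698 matched). Where a gene had several probe sets of its own, the one highest on average was kept, without a filter on level. No detection calls were used. KO and WT were compared with limma 3.58.1 in R 4.3.3 (lmFit, eBayes, genotype only, two-sided, Benjamini-Hochberg over 19938 genes); prior degrees of freedom were 8.06. The number of arrays limits the precision. On simulated data of 19938 genes, 91 of 100 genes shifted by 0.5 and 100 of 100 shifted by 1 (log2) were called. Every simulated gene had the same spread, an average over the genes of this comparison, whereas real genes differed in theirs. These shares therefore need not hold for the real genes. Families, medians and array overlaps are descriptions with no test.

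Named were all members, Klf13, called related genes and the 4 of each related group with the smallest p, and called markers. Cst3, Cd4, Foxp3 and Zbtb7b were named after their values were seen. Related genes and markers are hand-made lists. Members, lists and tests were chosen with earlier results of these data known. Alternatives were testing every probe set singly, averaging probe sets per gene, keeping the 9969 genes with higher means, quantile normalizing again, median centring, a trended and robust variance model, blocking on replicate number, and leaving out each array. With 2 pairs, deviations of same-numbered arrays correlated at 0.0074 over genes. This value cannot decide whether same-numbered samples were handled together, since there were only 2 pairs and the KO arrays differed in spread. Whether the numbers pair samples is thus not known here.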

Additional observations from a re-analysis of the deposited data

How the results depend on the processing

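Of 385 combinations of a measured early response gene and an alternative, 342 kept sign and side of the threshold. In 28 the sign changed, 9 gained and 6 lost a call, and 21 of the 35 genes kept their sign throughout. Several alternatives leave each gene's difference as it was, so that only its call could change. They are probe sets tested singly or averaged, the 9969 genes alone, the variance trend and the replicate block. All sign changes therefore came from the other alternatives. Genes called among the 35 numbered 2; 0 were called with all probe sets singly, 1 after a further quantile normalization, 4 after median centring, 5 with the replicate block and 0 to 5 with an array left out. Called related genes (6) became 0, 2, 16 and 14 under those same settings, 12 with a variance trend and robust moderation, and 1 to 16 with an array left out. Calls among all genes (448, of which 53.1% higher in KO) became 39 (59.0%) with all probe sets singly, 1088 (21.8%) after centring, 831 (42.1%) with the trend, 1187 (47.9%) with the replicate block and 264 to 1536 with an array left out; the 606 calls among the 9969 genes with higher means were 43.6% higher in KO. Positive differences among the 35 genes (14) became 5 after centring and 8 to 18 with an array left out, and families with a negative median (7 of 9) 4 to 9. After a further quantile normalization Dusp2 (0.045), Dusp5 (0.016) and Ier2 (0.071) changed sign. After centring so did Fos (-0.081), Jun (-0.041), Jund (-0.050), Egr1 (-0.071), Relb (-0.055), Nfkbia (-0.044), Btg1 (-0.045), Btg2 (-0.049) and Irf4 (-0.0035). With an array left out, differences ranged from -0.064 to 0.073 for Fos, -0.012 to 0.084 for Jund, -0.060 to 0.090 for Egr1, -0.10 to 0.040 for Nr4a3, -0.096 to 0.038 for Dusp2, -0.033 to 0.027 for Ier2, -0.29 to 0.20 for Ier3, -0.11 to 0.17 for Relb, -0.041 to 0.12 for Nfkbia, -0.015 to 0.096 for Btg1 and -0.087 to 0.25 for Irf4. With all probe sets singly the unadjusted limma p of both called genes rose too (Cd69 0.00265, against 0.000261, and Dusp6 0.00831, against 0.000618). The moderation of variances is then fitted on other features. The unadjusted p did not rise for every gene, that of Jun being 0.604, against 0.628. Leaving out an array leaves a lone sample assumed to vary like the others. With the replicate block, and without either WT array, the p-value followed the size of the difference alone. All genes then in effect shared the same spread, so calls in these fits do not rest on a gene's own spread. Other causes were not tested.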
